A study of Homo sapiens with 12 samples.

Results

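Pericyte and mural cell marker genes were examined in a Notch3 chromatin immunoprecipitation and sequencing (ChIP-seq) experiment. The set is a list of 30 named genes out of 20037 protein-coding genes of the autosomes and of chromosomes X and Y. A peak was given to the protein-coding gene with the end, at either side, nearest to the peak's summit, if that end lay within 100 kb on hg38. Under this rule 26 peaks of cells with the activated receptor and 3 peaks of control cells belonged to the 30 genes, out of 12583 peaks in all.

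Pericytes wrap capillaries and, with vascular smooth muscle, make up the mural cells of blood vessels; in the forebrain they come largely from the neural crest. Endothelial cells recruit them with platelet-derived growth factor B, which binds the receptor PDGFRB, and touch them with Notch ligands that activate NOTCH3. Ligand binding frees the intracellular domain of NOTCH3 (N3ICD), which enters the nucleus and acts on DNA through RBPJ together with Mastermind proteins. The genes in the set are used as labels of pericytes or mural cells, many of them in brain, and most are also active in other mesenchymal cells.

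Neural crest cells were derived from the human embryonic stem cell line H9, long established, and were profiled 6 days after lentiviral transduction. Formaldehyde at 1% was used for every sample. The N3ICD group received a virus for N3ICD with GFP, and the GFP group a virus for GFP alone. Each group had 3 Notch3 ChIP libraries, lettered A, B and C, and the study describes 3 independent differentiations of this single line, without tying letters to differentiations across groups. The labels call the N3ICD cells mural and the GFP cells neural crest. The files used here hold no expression values, so neither label was checked against marker genes, and a peak says where the antibody captured DNA, not whether a gene was active. The same antibody was used in both groups, and the promoter that drives the transgene was not given in the sources used here.

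The N3ICD libraries held 2226 to 3397 peaks and the GFP libraries 1219 to 1718. Depth could be judged only from the background that pileup and fold imply over the genome, which was 0.926 to 1.58 stacked fragments in N3ICD libraries and 1.21 to 1.90 in GFP libraries. Over all protein-coding genes, 8.89% ± 2.69 had an assigned peak in N3ICD libraries and 3.02% ± 0.524 in GFP libraries (SD, n = 3 each), and the groups did not overlap. The two-sided exact permutation p was 0.1, the smallest that 3 libraries against 3 can give. Most peaks were weak in either group. The authors' false discovery value, given as −log10 q, was 1.3 or more for 146 to 678 peaks per N3ICD library and 26 to 139 per GFP library. The fold given below for a peak is the authors' value, the stacked ChIP fragments at the summit relative to background, and it describes and ranks peaks within a library only.

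The first comparison asked at how many marker genes the Notch3 antibody found a peak with N3ICD and with GFP alone. Marker genes with a peak numbered 5, 8 and 8 of 30 in N3ICD A to C, and 1 in each GFP library. Every N3ICD library thus held more of them than every GFP library, with means of 7.0 ± 1.73 genes in N3ICD libraries and 1.0 ± 0.0 in GFP libraries (SD, n = 3 each). Receptors, transporters, transcription factors and mitochondrial proteins were all among the genes with N3ICD peaks. MCAM alone had a peak in all 3 N3ICD libraries.

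These counts were read against all genes of the same library. The shares of marker genes were 16.7%, 26.7% and 26.7% in N3ICD A to C, where 6.08%, 9.12% and 11.5% of all genes had a peak. In GFP A to C the share was 3.33% each, where 2.42%, 3.37% and 3.26% of all genes had one. The marker share was therefore above the share of all genes in each N3ICD library and close to it in each GFP library. With the libraries of a group joined, 16 marker genes (53.3%) had a peak in any N3ICD library, against 22.4% of all genes, and 3 (10%) had one in any GFP library, against 8.03%. No test over the 30 genes is given, because they were listed with earlier results of these data known.

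**Figure D1:**
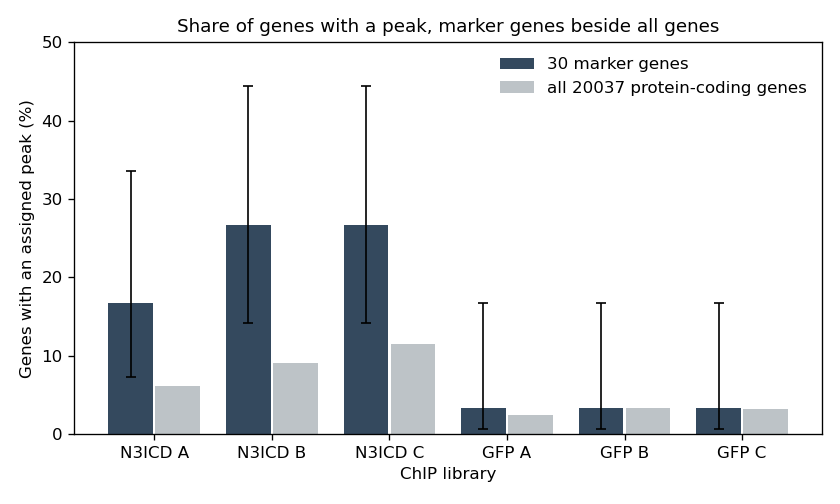
Percent of genes with an assigned peak (vertical axis) in each of the 6 ChIP libraries (horizontal axis), for the 30 marker genes (dark bars, with 95% Wilson intervals that cover counting error only) and for all 20037 protein-coding genes (grey bars). The intervals treat the marker genes as random draws, but they were listed with earlier results of these data known. An interval that leaves out a grey bar is therefore no test of the list. The dark bars stand at 16.7% to 26.7% in N3ICD libraries and at 3.33% in GFP libraries, and the grey bars at 6.08% to 11.5% in N3ICD libraries and 2.42% to 3.37% in GFP libraries.

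Genes with wide surroundings collect more peaks by this rule, so the width was measured too. The bases that would be given to a gene had a median of 64.4 kb for the marker genes and 57.1 kb for all genes. Among the 15 marker genes at or above the median width of all genes, 9 had an N3ICD peak, where 32.2% of all genes that wide had one. Among the 15 below it, 7 had one, where 12.7% of all such genes did. Per megabase of these bases, marker genes received 1.88, 3.45 and 2.82 peaks in N3ICD A to C, where all genes received 0.735, 1.11 and 1.43. In each GFP library they received 0.313 peaks per megabase, where all genes received 0.288, 0.396 and 0.413 in GFP A to C. With N3ICD libraries joined, the marker share was thus above that of all genes on each side of the median width. Widths were not matched on either side of it, and whether width accounts for the excess was not tested.

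Repeated finding of a gene was rarer. At 4 marker genes (13.3%) peaks recurred in 2 or more N3ICD libraries while GFP libraries had none. Over all genes, 3.12% met this rule. The 4 were MCAM, PDGFRB, NDUFA4L2 and SLC19A1. Peaks in all 3 N3ICD libraries and no GFP library were seen at 1 marker gene, MCAM (3.33%), where 0.349% of all genes met this stricter rule. The mirror pattern, at least 2 GFP libraries and no N3ICD library, was met by 0 marker genes and by 0.439% of all genes. When the peaks also had to overlap each other, so that the same region was found in at least 2 N3ICD libraries and no GFP library, MCAM remained as the 1 marker gene, and 0.958% of all genes met that rule.

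**Figure D2:**
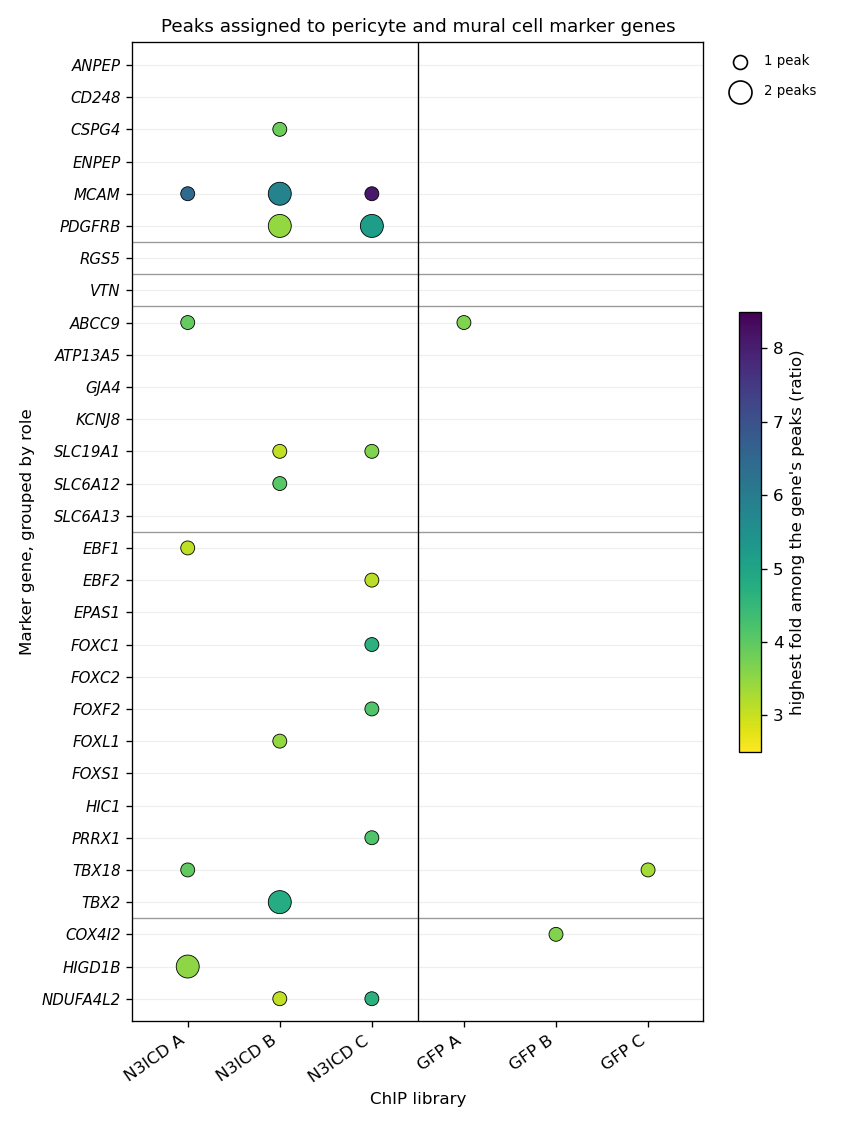
Peaks assigned to each of the 30 marker genes (rows, grouped by role from receptors at the top to mitochondrial proteins at the bottom) in each ChIP library (columns, N3ICD left of the line and GFP right of it). Circle size gives the number of peaks and colour the highest fold. The N3ICD columns hold 26 peaks at 16 genes and the GFP columns 3 peaks at 3 genes, and MCAM has the darkest circles.

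Each gene's own peak number was also tested between the groups with a two-sided exact permutation test over 6 libraries, run for all 20037 genes. The smallest exact p of 0.1 was reached by 78 genes, of which MCAM was the 1 marker gene. After Benjamini-Hochberg adjustment over all genes the smallest adjusted exact permutation p was 1, and 0 genes had an unadjusted p under 0.05, which this design cannot give.

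Receptors and surface proteins include the growth factor receptor that pericytes depend on. Of these 6 genes, MCAM, PDGFRB and CSPG4 had N3ICD peaks, 9 in all, and none had a GFP peak. For this role and those below, 22.4% of all genes had a peak in any N3ICD library and 8.03% in any GFP library. ANPEP (CD13, aminopeptidase N), ENPEP (aminopeptidase A, which trims angiotensin II) and CD248 (endosialin) had no assigned peak in any library.

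MCAM encodes CD146, an adhesion molecule of pericytes and endothelial cells. The gene lies on the minus strand of chromosome 11 (119308529 to 119317130), and its N3ICD peaks lay upstream of the start site. The summits stood 3460, 3412 and 3464 bp upstream in N3ICD A to C, at most 52 bp from each other. The 3 peaks together spanned 1272 bp (119320454 to 119321725). Their summit pileups were 14, 14 and 16 stacked fragments and their folds 6.48, 5.81 and 8.12. The strength was high within each library: the folds ranked 14th of 2226, 21st of 2490 and 15th of 3397 peaks in N3ICD A to C. The −log10 q was 4.66, 3.78 and 8.28, the 3 highest values at any marker gene. N3ICD B had a second, weaker peak 5938 bp upstream (fold 4.26, −log10 q 1.24). The nearest GFP summit lay 86877 bp from MCAM and was nearer to another gene, so no GFP peak was assigned to MCAM. The difference of 1.33 peaks per library, 1.33 with N3ICD and 0.0 with GFP, had a two-sided exact permutation p of 0.1 (adjusted p = 1 over all genes). The next gene by distance, CBL, which encodes a ubiquitin ligase, had its end 12393 to 12445 bp from these summits.

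The promoter of MCAM is shown because it is the one marker gene with a peak in every N3ICD library, and because it holds the letters to which RBPJ is known to bind. The window runs from 250 bases before to 50 after the start site (RefSeq, GRCh38.p14, chr11:119317081-119317380, minus strand), 5′ to 3′ along the gene. Capitals mark TTCCCA, the reverse complement of the RBPJ core TGGGAA.
MCAM: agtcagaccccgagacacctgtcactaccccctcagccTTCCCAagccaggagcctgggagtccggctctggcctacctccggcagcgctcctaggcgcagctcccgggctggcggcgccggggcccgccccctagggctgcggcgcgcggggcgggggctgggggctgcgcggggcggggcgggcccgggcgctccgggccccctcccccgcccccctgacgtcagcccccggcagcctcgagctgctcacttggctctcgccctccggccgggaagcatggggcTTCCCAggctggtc
The 2 matches begin 212 bases before and 36 bases after the start site. No peak of any library overlapped this window; the N3ICD summits lay farther upstream, outside the sequence available here. The core was present in 22.7% of such windows of all protein-coding genes, and the MCAM window did not hold the longer form GTGGGAA. A match is a description of the letters, not a bound site.

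PDGFRB encodes the receptor by which pericytes answer platelet-derived growth factor B. It lies on the minus strand of chromosome 5 (150113839 to 150155845). N3ICD A to C had 0, 2 and 2 peaks there, and all GFP libraries had 0 (two-sided exact permutation p = 0.4, adjusted p = 1). N3ICD B and C did not share a site. In N3ICD C both summits were upstream of the start site, at 2380 bp (fold 4.15, −log10 q 0.828) and 4196 bp (fold 5.19, −log10 q 2.11). In N3ICD B both were inside the gene, 12477 bp (fold 2.75, −log10 q 0.244) and 17553 bp (fold 3.48, −log10 q 0.498) from the start site. The closest summits of N3ICD B and C were 14857 bp apart, and the nearest GFP summit was 702279 bp away. The upstream peak at 4196 bp stood at the 93.9th percentile of fold in its library, and the weaker intragenic one at the 1.06th.

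The PDGFRB promoter is shown beside that of MCAM because N3ICD C peaks lay just upstream of it; it holds no TGGGAA on either strand and no peak overlapped it, so it has no capitals (RefSeq, GRCh38.p14, chr5:150155796-150156095, minus strand).
PDGFRB: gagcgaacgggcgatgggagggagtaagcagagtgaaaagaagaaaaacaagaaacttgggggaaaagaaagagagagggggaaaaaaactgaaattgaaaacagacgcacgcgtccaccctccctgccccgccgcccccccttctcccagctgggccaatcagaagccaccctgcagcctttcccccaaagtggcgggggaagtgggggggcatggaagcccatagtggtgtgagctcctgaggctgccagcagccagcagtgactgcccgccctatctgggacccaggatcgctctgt

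CSPG4 encodes NG2, the proteoglycan used to stain pericytes. It had a single peak, in N3ICD B, inside the gene and 4513 bp from the listed start site (fold 3.84, −log10 q 0.950). The nearest GFP summit was 1113004 bp away.

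**Figure D3:**
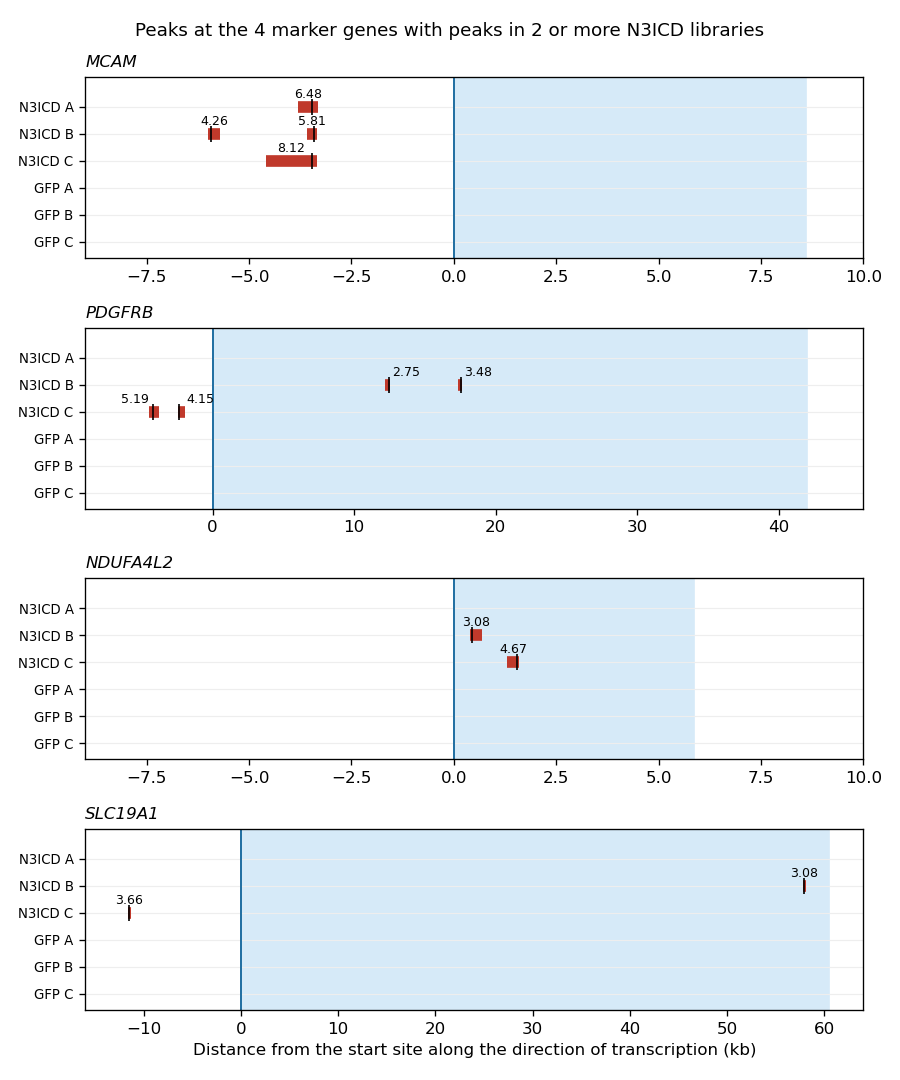
Peaks (red bars, with a black tick at the summit and the fold above) at MCAM, PDGFRB, NDUFA4L2 and SLC19A1 in each of the 6 ChIP libraries (rows), by distance from the start site in kb along the direction of transcription (horizontal axis, which differs between panels). The shaded span is the gene. The 3 MCAM summits line up at 3412 to 3464 bp upstream, whereas the N3ICD B and C peaks of the other genes do not overlap, and the GFP rows are empty.

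The channels, transporters and junction proteins gave a mixed picture. Of these 7 genes, SLC19A1, SLC6A12 and ABCC9 had N3ICD peaks and ABCC9 also had a GFP peak. KCNJ8, the pore of the vascular ATP-sensitive potassium channel, had none, although it neighbours ABCC9, the gene of the channel's sulfonylurea subunit, with 22683 bp between them. SLC6A13, a GABA transporter gene, GJA4, which encodes a gap junction connexin of vessels, and ATP13A5, a P-type ATPase gene that marks brain pericytes in mouse, had none either.

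SLC19A1 encodes the reduced folate carrier. It lies on chromosome 21 (45502517 to 45563025, minus strand) and had 0, 1 and 1 peaks in N3ICD A to C and 0 in each GFP library (two-sided exact permutation p = 0.4, adjusted p = 1). The N3ICD B summit lay inside the gene, 2572 bp from the end opposite the start site (fold 3.08, −log10 q 0.470). The N3ICD C summit lay 11496 bp upstream of the start site (fold 3.66, −log10 q 0.724), 69432 bp from the other. These were separate and weak peaks at opposite ends of the gene. The next gene is COL18A1, a basement membrane collagen gene, with its end 8631 bp from the N3ICD B summit and 60801 bp from the N3ICD C summit. These distances place that end within the SLC19A1 span, so the genes overlap. Whether the N3ICD B summit also lies inside COL18A1 was not tested.

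ABCC9 had 1 peak in each group. The N3ICD A summit lay 27395 bp upstream of the start site (fold 3.91, −log10 q 0.517), and the GFP A summit inside the gene, 25696 bp from that site (fold 3.65, −log10 q 0.315). The values were of like size in both groups, and the other libraries had 0 (two-sided exact permutation p = 1, adjusted p = 1). SLC6A12 encodes the betaine and GABA transporter and had 1 peak, in N3ICD B, inside the gene and 10259 bp from its nearer end (fold 4.05, −log10 q 1.21). That summit lay 16724 bp from SLC6A13, whose span begins 6465 bp beyond SLC6A12, so both neighbours share this 1 peak under a wider rule.

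Transcription factors were the largest group. Of 12 such genes 8 had an N3ICD peak, 9 peaks in all, and 1 had a GFP peak, where 22.4% and 8.03% of all genes had one. By the nearest-end rule, the peak recurred in another N3ICD library in none of the 8. The genes were TBX18 and EBF1 in N3ICD A, TBX2 and FOXL1 in N3ICD B, and FOXC1, FOXF2, PRRX1 and EBF2 in N3ICD C. FOXC2, FOXS1, HIC1, a zinc finger repressor gene, and EPAS1, the gene of the hypoxia-inducible factor HIF-2α, had no assigned peak. Several of the 8 genes were wide by the measure above, with 229 kb at PRRX1, 232 kb at TBX18, 329 kb at EBF1 and 400 kb at EBF2. TBX2 had 34.6 kb. Among all genes at or above the median width, 32.2% had an N3ICD peak.

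Among the forkhead genes, several of which help specify mural cells and brain vessels, FOXC1 had a peak 12588 bp upstream of its start site in N3ICD C (fold 4.67, −log10 q 1.39). FOXF2, which lies 214312 bp from FOXC1 on chromosome 6, had one 24664 bp upstream in the same library (fold 4.15, −log10 q 0.828). FOXL1 had one inside the gene in N3ICD B, 1076 bp from its nearer end (fold 3.48, −log10 q 0.498). Its neighbour FOXC2, across a gap of 8821 bp, was 9897 bp from that summit and received none by the nearest-end rule. For each of these genes the nearest GFP summit was more than 100 kb away. An N3ICD summit 11454 bp from FOXC1, nearer than its assigned peak, went to another gene. With every gene within 50 kb taken, or the nearest start site, FOXC1 had peaks in at least 2 N3ICD libraries.

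The T-box genes differed in where their peaks lay. TBX2 had a pair of peaks in N3ICD B at one end of the gene, 684 bp inside it (fold 4.55, −log10 q 1.71) and 1729 bp outside it (fold 4.81, −log10 q 2.34). These had the highest −log10 q values among peaks at the transcription factor genes and ranked 265th and 124th by fold among the 2490 peaks of their library. TBX18, used to label mural cells in mouse, had distant peaks in both groups: the N3ICD A summit lay 87709 bp upstream (fold 3.97, −log10 q 0.517) and the GFP C summit 54070 bp upstream (fold 3.30, −log10 q 0.449). Its peak numbers had a two-sided exact permutation p of 1 (adjusted p = 1).

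PRRX1, a homeobox gene of mesenchymal cells, had 1 peak, in N3ICD C (chromosome 1, 170663940 to 170664165; fold 4.15, −log10 q 0.828). The listed start site lies inside the annotated span of the gene. The summit stood at base −107 counted from that start site, inside the gene and 1256 bp from the gene's nearer end. This was the one marker gene peak that overlapped a listed promoter window, so that promoter is shown with the 226 bases under the peak in capitals (RefSeq, GRCh38.p14, chr1:170663881-170664180, plus strand).
PRRX1: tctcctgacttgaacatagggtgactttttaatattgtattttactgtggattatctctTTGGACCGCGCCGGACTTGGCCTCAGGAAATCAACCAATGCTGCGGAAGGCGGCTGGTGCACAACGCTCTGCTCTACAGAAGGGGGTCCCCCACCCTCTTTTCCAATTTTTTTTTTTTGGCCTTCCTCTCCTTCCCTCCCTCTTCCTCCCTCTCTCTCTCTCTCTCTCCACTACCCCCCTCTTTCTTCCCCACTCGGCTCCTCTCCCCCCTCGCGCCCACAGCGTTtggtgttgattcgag
The covered stretch runs from base 60 to base 285 of the window and holds no TGGGAA on either strand. The peak was of ordinary strength, at the 69.0th percentile of fold in N3ICD C, with a pileup of 7 that it shared with the FOXF2 peak and one PDGFRB peak of the same library.

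EBF1 and EBF2, helix-loop-helix factor genes of mesenchymal lineages, had weak distant peaks. The EBF1 summit in N3ICD A lay 22836 bp from the nearer end (fold 3.09, −log10 q 0.104), and the EBF2 summit in N3ICD C 91015 bp from it (fold 3.12, −log10 q 0.147). The bases that would be given to EBF1 and EBF2 came to 329 and 400 kb, far above the median of all genes, so the distance limit decided what was counted. The EBF2 and TBX18 summits at 91015 and 87709 bp were the last inside the limit. Just outside it were N3ICD C summits at 126763 bp from EBF2 (fold 3.82) and 132268 bp from EBF1 (fold 4.67), and an N3ICD B summit 139152 bp from TBX18 (fold 3.10). GFP summits beyond the limit lay 139085 bp (fold 4.08, GFP B) and 149384 bp (fold 2.85, GFP C) from the ends of EBF1. Another lay 139822 bp (fold 2.77, GFP C) from EBF2. The GFP B summit lay inside EBF1. When a summit inside a gene was given to that gene first, GFP B held 2 marker genes with a peak.

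Of the 3 genes of hypoxia and mitochondrial respiration, which mark brain and lung pericytes, 2 had N3ICD peaks, near gene ends, and 1 had a GFP peak. NDUFA4L2, now named COXFA4L2, encodes a hypoxia-induced relative of a respiratory chain subunit. It had 0, 1 and 1 peaks in N3ICD A to C and 0 in each GFP library (two-sided exact permutation p = 0.4, adjusted p = 1). Both summits lay inside this short gene on chromosome 12 (57234903 to 57240762, minus strand), 439 bp (N3ICD B; fold 3.08, −log10 q 0.470) and 1554 bp (N3ICD C; fold 4.67, −log10 q 1.39) from the start site. They were 1115 bp apart and their peaks did not overlap. The next gene, STAC3, was 3135 and 4250 bp from them, so the assignment rests on a few kilobases.

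HIGD1B, a relative of the hypoxia-induced HIGD1A gene, had a pair of weak peaks in N3ICD A, 949 bp outside one end (fold 3.09, −log10 q 0.104) and 2366 bp inside it (fold 3.53, −log10 q 0.246). The next gene, EFTUD2, was 6037 and 2722 bp from these summits, so the second was only slightly nearer to HIGD1B. COX4I2 encodes an oxygen-sensitive isoform of a cytochrome c oxidase subunit and was the one marker gene with a peak in a GFP library alone. That summit, in GFP B, lay 10652 bp from the gene (fold 3.63, −log10 q 0.226), and the nearest N3ICD summit was 64652 bp away.

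RGS5, a G protein regulator widely used as a pericyte marker, and VTN, the gene of the secreted matrix protein vitronectin, had no assigned peak in any library. In all, 13 of the 30 genes had none. For 7 of these 13 an N3ICD summit lay within 100 kb but was nearer to another gene, from 9897 bp at FOXC2 to 86158 bp at EPAS1. For the other 6, RGS5, KCNJ8, ANPEP, ATP13A5, HIC1 and ENPEP, the nearest N3ICD summit was 194115 bp (KCNJ8) to 449248 bp (RGS5) away, and the nearest GFP summit 141024 bp (KCNJ8) to 2387065 bp (ANPEP).

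The peaks themselves were then compared with all assigned peaks of the same group. The 26 N3ICD peaks at marker genes had a median distance of 3830 bp from the gene end, against 8350 bp for all 5881 assigned N3ICD peaks. Fewer of them were right at an end: 3 (11.5%) lay within 1 kb, against 29.5% of all. More were within 5 kb, 14 (53.8%) against 43.4%. They lay inside a gene in 11 cases (42.3%), against 52.5% of all. The 3 GFP peaks had no summit within 5 kb, and their median distance of 25700 bp was close to the 29300 bp of all 1971 assigned GFP peaks.

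Their strength varied widely. The median percentile of fold of the 26 N3ICD peaks was 69.0, against 48.9 for all assigned N3ICD peaks, with median folds of 4.01 and 3.64. The −log10 q was 1.3 or more for 8 of them (30.8%), against 16.8% of all. These 8 belonged to MCAM (1 in each N3ICD library), TBX2 (2 in N3ICD B) and FOXC1, NDUFA4L2 and PDGFRB (1 each in N3ICD C). It was 5 or more for the MCAM peak of N3ICD C alone (3.85%), against 0.986% of all. None of the 3 GFP peaks reached 1.3.

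**Figure D4:**
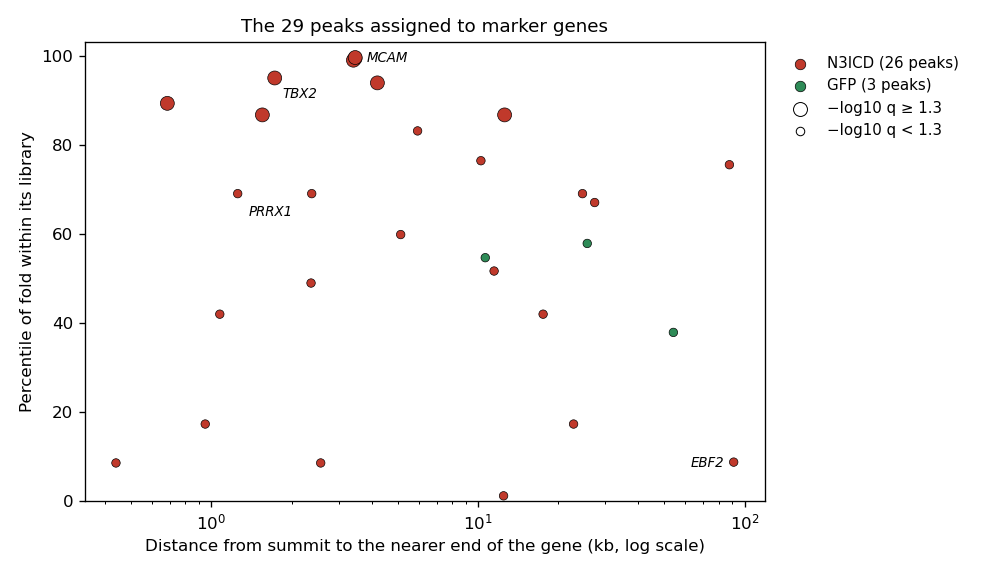
The 29 peaks at marker genes by distance from summit to the nearer gene end (horizontal axis, kb, log scale) and by percentile of fold within their library (vertical axis). N3ICD peaks are red and GFP peaks green, and large circles have a −log10 q of at least 1.3. Of the 4 MCAM peaks 3 lie at the top, at percentiles of 99.0 to 99.6, and the 3 GFP peaks lie between the 37.8th and 57.8th percentiles at more than 10 kb.

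Promoter windows of 300 bases were found for 19 of the 30 genes. None was listed for CD248, COX4I2, EBF2, FOXC2, FOXL1, FOXS1, GJA4, HIC1, HIGD1B, SLC6A12 and TBX2. The RBPJ core TGGGAA, searched on both strands, was present in 5 of the 19 (26.3%) and in 22.7% of 15843 windows of all protein-coding genes. The 5 were MCAM, with 2 matches, and ATP13A5, EBF1, FOXC1 and TBX18, with 1 each. The longer form GTGGGAA, which contains the core, was present in 1 (TBX18; 5.26%), against 5.99% of all. In the last 150 bases of the window the core was present in the same 5 genes (26.3%), against 10.9% of all. Base composition was similar, with a median of 59.3% G and C in the marker genes' windows and 62.7% in all. Of the 5 genes with the core, MCAM, EBF1, FOXC1 and TBX18 had N3ICD peaks and ATP13A5 had none, and none of the peaks overlapped the windows.

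The other genes of the mural and growth factor pathways, and markers of other cell types that a neural crest culture could hold, were read by the same rule. Among 20 other mural genes 5, 3 and 9 had a peak in N3ICD A to C and 1, 3 and 4 in GFP A to C. The shares were 25%, 15% and 45% in N3ICD A to C, where 6.08%, 9.12% and 11.5% of all genes had one. They were 5%, 15% and 20% in GFP A to C, where 2.42%, 3.37% and 3.26% of all genes had one. NOTCH3, HEYL, GUCY1A1 and GUCY1B1 had peaks in at least 2 N3ICD libraries and no GFP library. GUCY1A1 and GUCY1B1 encode the paired subunits of the nitric oxide receptor of mural cells; the GUCY1A1 folds were 3.53 and 5.29 in N3ICD A and C, and the GUCY1B1 folds 4.68, 4.93 and 12.5 in N3ICD A to C. NOTCH3 had a region inside the gene in all 3 N3ICD libraries (folds 4.88, 5.88 and 6.58). A further NOTCH3 peak in N3ICD A (fold 3.70) lay inside the gene, 2533 bp from its nearer end. The N3ICD virus carries part of the NOTCH3 sequence, and whether it added reads at these sites was not tested. HEYL, a Notch target gene, had folds of up to 7.70 in N3ICD A and 6.05 in N3ICD C. ANGPT1, the gene of the pericyte ligand angiopoietin 1, had separate weak peaks in 2 libraries of each group, with folds of 3.39 and 3.64 in N3ICD A and C and 3.85 and 2.77 in GFP B and C. STEAP4, a metalloreductase gene, had peaks in 2 GFP libraries alone, with folds of 3.48 and 2.80 in GFP B and C.

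Among 20 genes of platelet-derived growth factor signalling 1, 5 and 4 had a peak in N3ICD A to C and 0, 2 and 1 in GFP A to C. For this list and those below, the shares of all genes with a peak were 6.08%, 9.12% and 11.5% in N3ICD A to C. In GFP A to C they were 2.42%, 3.37% and 3.26%, so a count of 0 or 1 in a short list is near that level. PDGFA, a ligand gene, had peaks in all 3 N3ICD libraries at separate sites, the highest fold being 5.84 in N3ICD C, 24850 bp from the gene. SHC1, an adaptor gene of receptor tyrosine kinases, had overlapping peaks in N3ICD B (78 bp from the gene end, fold 4.75) and N3ICD C (342 bp, fold 3.41). PTPN11, the gene of the phosphatase SHP2, had separate peaks in N3ICD B (fold 3.87) and N3ICD C (43 bp from the gene end, fold 3.64). The 3 genes had no GFP peak. Peaks in at least 2 N3ICD libraries and no GFP library were thus seen at 3 of these 20 genes and at 4 of the 20 other mural genes, where 3.12% of all genes met the rule.

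Of 15 smooth muscle genes 2, 1 and 4 had a peak in N3ICD A to C and 0 in each GFP library; TPM2, a tropomyosin gene, had overlapping peaks in N3ICD B (fold 3.08) and N3ICD C (fold 6.55). Of 15 fibroblast genes 1, 1 and 5 had one in N3ICD A to C and 1 in each GFP library. The GFP peaks were all at PDGFRA, a growth factor receptor gene that also stands in the list of other mural genes, at 3 separate sites with folds of 3.65, 3.61 and 3.44 in GFP A to C, beside 1 peak in N3ICD C (fold 3.64). Of 15 endothelial genes 1, 1 and 2 had one in N3ICD A to C, and 0, 0 and 1 in GFP A to C. Of 15 neural crest genes 2, 4 and 4 had one in N3ICD A to C, and 0, 5 and 0 in GFP A to C. ETS1, a transcription factor gene of that list, had weak separate peaks in N3ICD A (fold 3.53) and N3ICD C (fold 3.12). With N3ICD libraries joined, 50% of other mural, 30% of platelet-derived growth factor, 40% of smooth muscle and 46.7% of fibroblast genes had a peak. The endothelial share was 26.7% and the neural crest share 60%, beside 53.3% of marker genes and 22.4% of all genes. A share above that of all genes was thus not particular to the marker genes. With GFP libraries joined, the shares in this order were 20%, 15%, 0%, 6.67%, 6.67% and 33.3%, against 8.03% of all genes. These lists hold few genes, so 1 gene moves a share by several percentage points, and the difference between the marker genes and each list was not tested.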

How the data were processed

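Notch3 ChIP-seq peak lists of 6 libraries were used, 3 of N3ICD cells and 3 of GFP cells. Input libraries, 6 in number, were not analysed here. The submitters' processing notes name Bowtie2 2.2.1, MACS3 3.0.0a7, deepTools 3.5.1, SAMtools 1.11 and bedtools 2.30.0, and build hg38. The sources used here do not state their options or the control behind each peak call. Peak calling was done by the authors library by library, as the names of the deposited peaks show. Fold in the deposited lists is a ratio, ChIP pileup over background at the summit. The deposited −log10 p and −log10 q are those of the authors' peak caller. The deposited signal is the summit pileup in stacked fragments. Folds served for description and ranking inside a library. The background in fragments was computed from pileup and fold; it stands in for depth, as the sources used here give no read totals.

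Positions are 1-based on hg38, with gene spans and promoters from RefSeq tables of GRCh38.p14. All 30 symbols were found, NDUFA4L2 as a synonym. A summit went to the protein-coding gene with the nearest end within 100 kb, and peaks that overlapped by any base were merged into 12268 regions. Start site and strand came from the first promoter listed for a gene. Group differences were tested with two-sided exact permutation tests, with Benjamini-Hochberg adjustment over all 20037 genes. Genes were named by a rule: marker genes with peaks in at least 2 libraries or in any GFP library in full, those with a peak in 1 N3ICD library by fold and distance, the rest by name, and genes of the other lists with peaks in at least 2 libraries of one group. The 30 genes, the lists and the tests were chosen with earlier results of these data known. Alternatives covered peak strength, equal numbers of peaks, the distance limit, the assignment rule, left-out libraries, the replicate letter as a block and the motif. Assignment was tested on simulated data. Wilson intervals are at 95%. Software was Python 3.11.15, SciPy 1.17.1, pandas 2.3.3, numpy 2.4.6 and matplotlib 3.10.9.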

Additional observations from a re-analysis of the deposited data

How the results depend on the processing

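The differences in marker genes with a peak, in the share of all genes and in peaks at MCAM stayed above 0 under every alternative run. Peak numbers at ABCC9 and TBX18, equal between the groups, differed by −0.333 per library (N3ICD minus GFP) without N3ICD A, and by 0.333 without GFP A at ABCC9 and without GFP C at TBX18. The difference in marker genes with a peak, 6.0 genes per library (N3ICD minus GFP), was 3.67 with the 1219 most significant peaks of each library, 4.0 with a limit of 10 kb, 2.33 among peaks with a −log10 q of 1.3 or more and 0.333 with 5 or more. In the same settings the difference over all genes, 5.87 percentage points, was 1.79, 4.29, 1.46 and 0.0898. Without any one library the difference in marker genes lay between 5.5 and 7.0. With equal numbers of peaks N3ICD A to C held 4, 4 and 6 marker genes with a peak, where 3.46%, 4.78% and 4.73% of all genes had one, and each GFP library held 1. The count of marker genes with peaks in at least 2 N3ICD libraries and no GFP library, 4, was 2 within 10 kb (1.48% of all genes), 1 with equal numbers of peaks (0.998%), 1 with a −log10 q of 1.3 or more (0.270%), 0 with 5 or more (0.025%) and 1 when all 3 N3ICD libraries were required (0.349%). The requirement of all 3 libraries uses the same peaks under a stricter rule, and the other settings leave fewer assigned peaks. Without any one library the count lay between 1 and 4; it was 1, MCAM, without N3ICD B (1.06% of all genes) or without N3ICD C (0.953%) and 4 without N3ICD A (1.81%), so NDUFA4L2, PDGFRB and SLC19A1 rest on N3ICD B and C. The share of promoters with the RBPJ core, 26.3% against 22.7% of all promoters, was 5.26% against 5.99% for the longer form. Taking every gene within 50 kb, or the nearest start site, gave 5 genes, with FOXC1 added (9.38% and 2.86% of all genes). Same-lettered libraries did not deviate together (correlations of −0.0234, 0.000963 and −0.0144 over 5478 genes), and differently lettered ones gave −0.0057 to 0.0219. Peaks recurred at few genes, so these values cannot decide whether letters pair the samples. With the letter as a replicate block the difference over all genes, 5.87 percentage points, had an exact sign-flip p of 0.25. The MCAM difference, 1.33 peaks, also had an exact sign-flip p of 0.25, the smallest 3 pairs allow. With 3 libraries a group neither exact test can pass 0.05, which says nothing of stability. Weak peaks limit what can be read: 18 of the 26 N3ICD peaks had a −log10 q under 1.3.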
